A study of Arabidopsis with 26 samples.

Results

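SWI3D and SYD are subunits of Arabidopsis SWI/SNF chromatin remodelling complexes, and the 7 peak lists described here map both of them in 14-day-old seedlings. They are the 3 lists whose deposited names state SWI3D-GFP swi3d-1 and the 4 whose names state SYD-GFP syd-5, out of 26 chromatin immunoprecipitation sequencing (ChIP-seq) lists in the series. The lines were read from the names of the deposited lists and not from the sample labels. In each line green fluorescent protein (GFP) tagged the subunit, and the fusion was carried together with a mutant allele of its own gene, swi3d-1 or syd-5, and chromatin was precipitated with an antibody against GFP. The names of the SYD lists write the fusion as SYD-N-GFP. The promoter of each fusion and the number of independent transgenic lines are not given in the sources used here. The reference was BRM-GFP brm-1, with 2 lists from a line that carries a GFP fusion of BRM with the brm-1 allele. The labels speak of biological replicates but do not say that replicates came from separate sowings, so the spread between lists may be partly technical.

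SWI/SNF complexes use the energy of ATP to slide or evict nucleosomes, and the subunit that does this is a Snf2-type ATPase. Plants have several such ATPases, among them SPLAYED (SYD) and BRAHMA (BRM), which share many developmental target genes. SWI3 proteins are scaffold subunits, related to yeast SWI3, that hold the complex together; SWI3D has been placed with SYD and its paralogue SWI3C with BRM. The comparison asked how closely the sites of SWI3D match those of SYD, with BRM as the yardstick.

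Label and list name state different lines for 4 of the 7 lists and for 19 of all 26. SWI3D 2 is labelled SYD-GFP syd-5 brm-1, SWI3D 3 is labelled MINU2-GFP minu2-1, SYD 1 is labelled BSH-GFP bsh and SYD 2 is labelled SWI3C-GFP. Every peak name in SYD 1 and SYD 2 carries the text "syd-5" and the replicate number of the list name, whereas the other 5 lists carry no such text. Both lists named SYD-GFP syd-5 swi3d-1 carry it as well, so the text "syd-5" alone does not tell these lines apart. SWI3D 1, SYD 3, SYD 4 and both BRM lists have the same line in both records. The lists also come in 2 kinds: 12 of the 26 hold 62 to 139 peaks on the plastid and mitochondrial genomes and 14 hold none. SWI3D 1, 2 and 3 hold 102, 70 and 82 such peaks, and no SYD or BRM list holds any. A difference between SWI3D and SYD and a difference between the 2 kinds of list therefore cannot be told apart. By deposited name 14 of the 26 lists are of the ATPases BRM, SYD and MINU2 and 12 are of other subunits. These are the numbers of the 2 kinds, so kind of list and class of subunit cannot be told apart either. The SYD and BRM lists, whose nearness to SWI3D is compared, all lack organelle peaks, but they differ at 5 nuclear regions typical of the lists that hold them, as given with those regions. The files hold no read counts, so depth is unknown, and a region without a peak is a region that was not called.

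On chromosomes 1 to 5 SWI3D and SYD were called at similar numbers of sites, but SYD peaks covered more of the genome. SWI3D had 13030, 16434 and 16629 peaks in replicates 1, 2 and 3. SYD had 16114, 17283, 16223 and 16082 peaks in replicates 1 to 4. SWI3D 1 was the shortest of these lists and the ranges of the groups overlapped. The means differed by a log2 ratio, SYD over SWI3D, of 0.10, with p = 0.571 in a two-sided exact permutation test over lists (0.571 after adjustment over 3 tests). The peaks covered 8.24, 11.7 and 11.9 Mb in the SWI3D lists and 15.7, 17.8, 14.2 and 13.6 Mb in the SYD lists. Every SYD list covered more than every SWI3D list, with means of 15.3 ± 1.90 Mb (SD, n = 4) and 10.6 ± 2.08 Mb (SD, n = 3). On the log2 scale this is a ratio of 0.53, and the exact two-sided permutation p of 0.0571 is the smallest that 3 against 4 lists allow (0.171 adjusted).

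Typical peak width overlapped between the lines, and the broadest peaks did not. Median width was 522, 589 and 591 bp in SWI3D and 655, 683, 611 and 588 bp in SYD, and the groups overlapped (log2 ratio 0.16; two-sided exact permutation p = 0.171, or 0.257 adjusted). The 90th percentile of width was 1110 to 1274 bp in SWI3D and 1672 to 2133 bp in SYD. The widest peak was 3843 to 3857 bp in SWI3D and 14514 to 15171 bp in SYD. Where a SWI3D peak overlapped a SYD peak the SWI3D peak was the narrower in 72.1% of cases on average, with a range of 55.8% to 93.7% over the 12 pairs of lists. The kind of list differs between these groups in the same way, as given above, and its part in the widths was not tested.

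**Figure D1:**
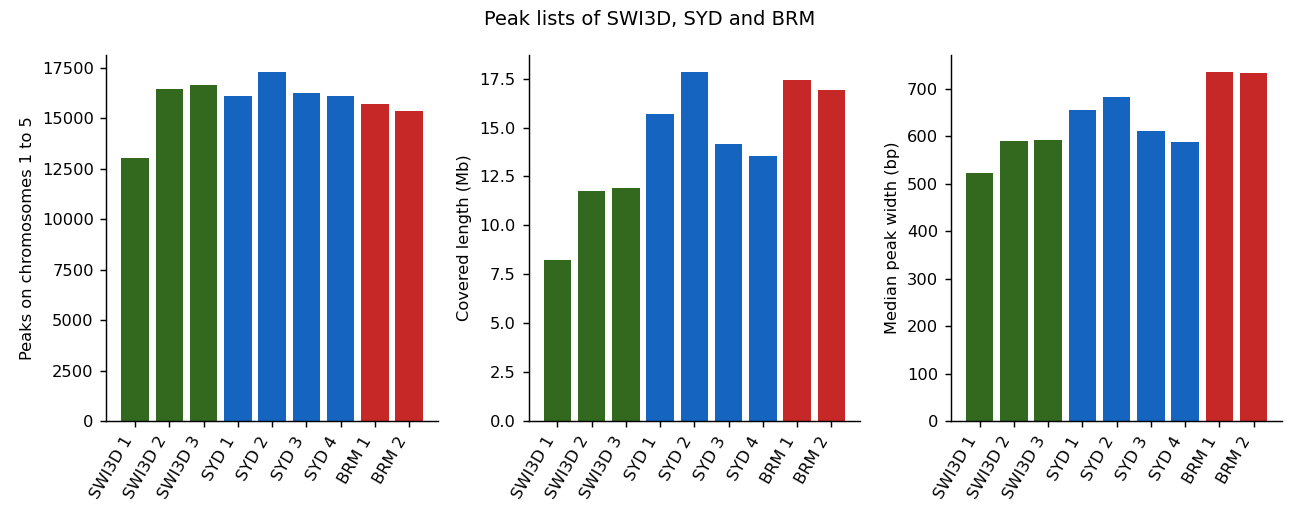
Number of peaks, covered length in Mb and median peak width in bp on chromosomes 1 to 5 in each SWI3D, SYD and BRM list, 1 bar per list. Peak numbers of SWI3D and SYD overlap, while the 4 SYD lists (13.6 to 17.8 Mb) all cover more than the 3 SWI3D lists (8.24 to 11.9 Mb).

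SWI3D sites lay nearer to SYD sites than to BRM sites by each of 5 measures. The base-pair Jaccard index, which is the overlap of 2 lists divided by their union, was 0.536, 0.511, 0.548 and 0.546 for SYD 1 to 4, each averaged over the 3 SWI3D lists. It was 0.408 and 0.414 for BRM 1 and 2. The groups did not overlap, with means of 0.535 ± 0.0170 (SD, n = 4) and 0.411 ± 0.00409 (SD, n = 2). An overlap of at least 1 bp was found for 89.7%, 93.1%, 87.7% and 86.5% of SWI3D peaks in SYD 1 to 4. In BRM 1 and 2 it was found for 83.1% and 82.4%, below all SYD lists. Permuting the 6 ATPase lists gave p = 0.133 for each of these differences (two-sided exact permutation; 0.133 also after adjustment over 5 tests), the smallest that 4 against 2 lists allow, so the design cannot pass 0.05.

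The order of the sites by strength was also nearer to SYD. Peaks were ranked within each list by the authors' −log10 q, over 8239 regions that held a peak in all 9 lists. Spearman's rho with SWI3D was 0.797, 0.802, 0.793 and 0.781 for SYD 1 to 4 and 0.508 and 0.514 for BRM 1 and 2. These are descriptions over regions that share libraries and genome. Replicates reached 0.847 to 0.970 among SWI3D lists, 0.902 to 0.951 among SYD lists and 0.935 between the BRM lists. SYD with BRM gave 0.641 to 0.656, above SWI3D with BRM at 0.490 to 0.524. The difference of the means, 0.793 ± 0.00886 (SD, n = 4) for SYD against 0.511 ± 0.00417 (SD, n = 2) for BRM, again had p = 0.133 (exact permutation test, two-sided, smallest possible). Ranking by fold enrichment lowered rho with SWI3D to 0.648 for SYD and 0.387 for BRM and kept SYD above BRM. By fold the range for SWI3D with SYD, 0.622 to 0.681, overlapped that for SYD with BRM, 0.626 to 0.642.

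Summits, the points of highest signal within peaks, lay closer between SWI3D and SYD than between SWI3D and BRM. The median distance from a SWI3D summit to the summit of the overlapping peak, averaged over the SWI3D lists, was 47.0, 48.0, 47.7 and 49.7 bp for SYD 1 to 4. For BRM 1 and 2 it was 201 and 194 bp. Replicates of SYD lay 42 to 53 bp apart, those of SWI3D 27 to 40 bp and those of BRM 56 to 57 bp. SYD summits in turn lay 162 to 180 bp from BRM summits. Within 100 bp were 72.2% of SWI3D summits against SYD, 34.5% against BRM, 83.1% against another SWI3D list and 74.4% of SYD summits against another SYD list. The 90th percentile of the distance was 787 bp from SWI3D to SYD and 1261 bp from SWI3D to BRM, against 188 bp among SWI3D and 412 bp among SYD replicates. This value depends on the direction, and it was 294 bp from SYD to SWI3D and 875 bp from BRM to SWI3D. The difference between 48.1 ± 1.13 bp (SD, n = 4) and 198 ± 4.95 bp (SD, n = 2) had p = 0.133 (exact permutation test, two-sided, smallest possible).

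**Figure D2:**
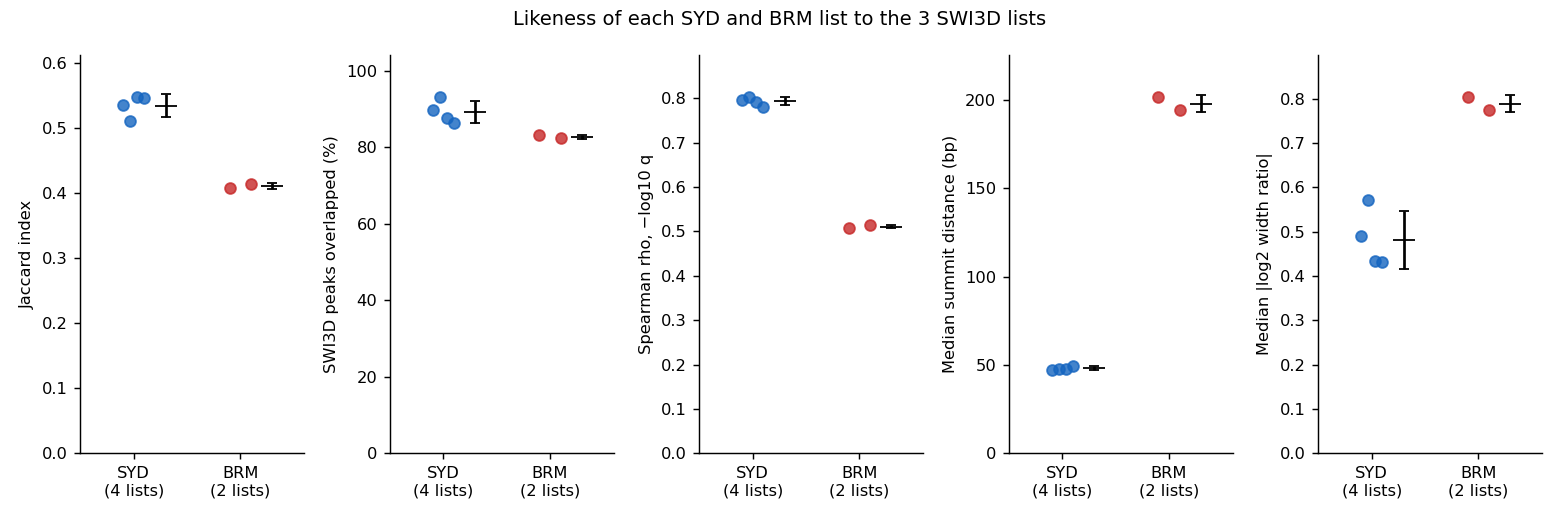
Jaccard index, percent of SWI3D peaks overlapped, Spearman's rho of −log10 q, median summit distance in bp and median absolute log2 width ratio for each of the 4 SYD and 2 BRM lists, averaged over the 3 SWI3D lists (points), with mean ± SD (black). The groups do not overlap in any panel, and summit distances are 47.0 to 49.7 bp for SYD and 194 to 201 bp for BRM.

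Peak width differed less between SWI3D and SYD than between SWI3D and BRM. The median absolute log2 ratio of widths was 0.49, 0.57, 0.44 and 0.43 for SYD 1 to 4 and 0.80 and 0.78 for BRM 1 and 2 (exact permutation test, two-sided, p = 0.133, smallest possible). Counting only overlaps of 50% of both peaks, the difference, SYD minus BRM, was −0.09 in place of −0.31 for widths and −62 bp in place of −149.75 bp for summits. In pairs where both peaks were narrower than 500 bp, a comparison chosen after seeing the data, the mean median distance was 42.1 bp to SYD and 82.1 bp to BRM. With lines read from the sample labels the differences between SYD and BRM fell to 0.0614 for the Jaccard index (exact permutation p = 0.133), 0.238 percentage points for the overlapped share (p = 0.933) and 0.0362 for rho (p = 0.8), and the summit difference was −122.5 bp (p = 0.133).

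**Figure D3:**
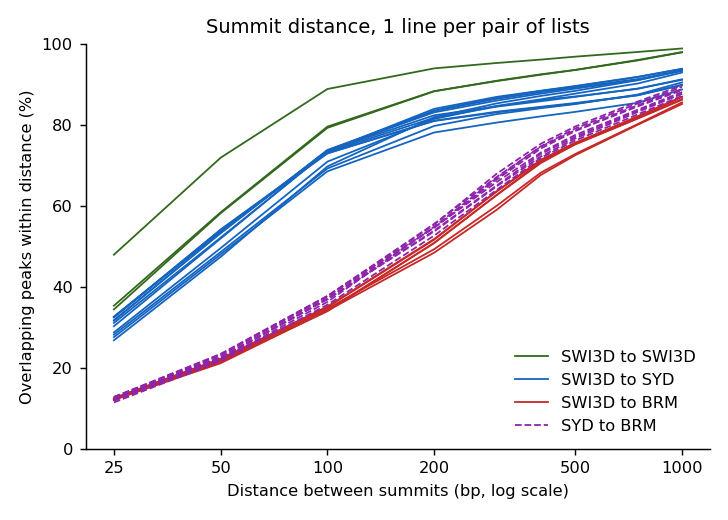
Percent of overlapping peaks whose summits lie within a given distance (bp, log axis), with 1 line for each pair of lists. At 100 bp SWI3D to SYD pairs lie between 68.5% and 73.8%, below the SWI3D replicates and far above SWI3D to BRM at 34.0% to 35.1%.

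By the mean Jaccard index SYD was closer to BRM than to SWI3D, with overlapping ranges: it was 0.547 to 0.594 for SYD with BRM and 0.428 to 0.578 for SWI3D with SYD. The share of SYD peaks overlapped went the same way, at a mean of 81.9% for BRM (77.8% to 84.2%) and 76.2% for SWI3D (62.5% to 82.7%). SWI3D lists cover less than the others, and the part of covered length in these values was not tested. With windows of 100 bp to either side of each summit in place of whole peaks, an alternative added after seeing the data, the Jaccard index was 0.367 for SWI3D with SYD and 0.170 for SYD with BRM. SWI3D with BRM was then at 0.150, and SYD replicates were at 0.403.

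The strongest SWI3D sites were shared with SYD more often than with BRM, and less often than between replicates of SWI3D on average. Among the 82 strongest regions of each list, the top 1% of the 8239, SWI3D shared 41.1% with SYD (31.7% to 52.4% over 12 pairs of lists) and 10.2% with BRM (6.10% to 13.4% over 6 pairs). Replicates shared 65.9% in SWI3D and 65.0% in SYD. Among the top 10%, 824 regions, SWI3D shared 62.7% with SYD and 32.9% with BRM, while replicates shared 75.2% and 81.5%. With ranks averaged over the lists of a line, the median region moved by 8.98 percentile points between SWI3D and SYD and by 17.4 points between SWI3D and BRM.

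**Figure D4:**
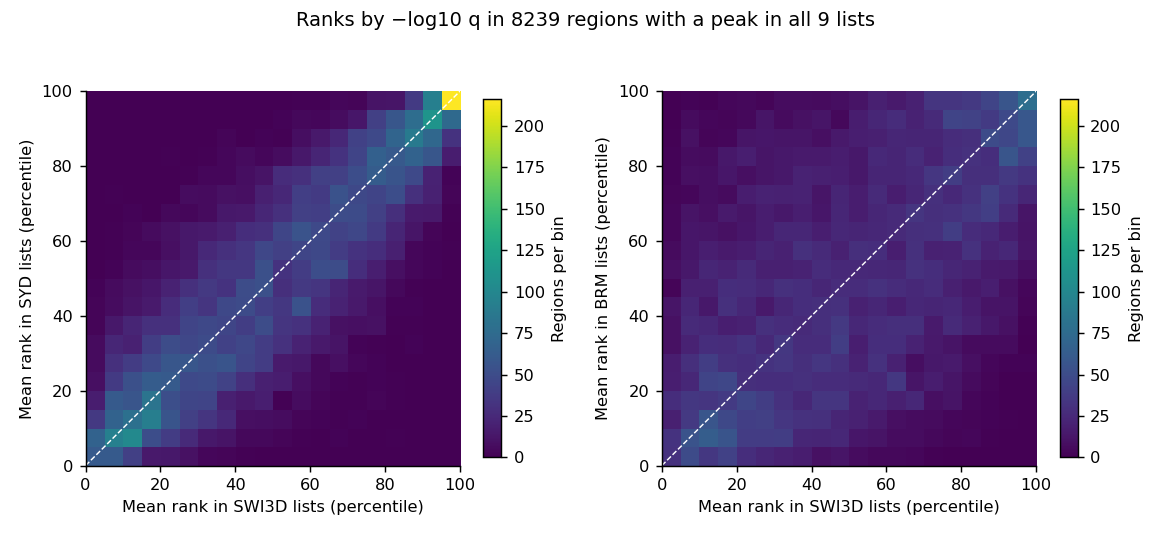
Mean rank by −log10 q in the SWI3D lists (percentile, x axis) against mean rank in the SYD lists (left) or BRM lists (right) for 8239 regions with a peak in all 9 lists; colour gives regions per bin and the dashed line equal rank. Regions gather along the line for SYD (rho 0.849) and spread widely for BRM (rho 0.538).

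Rank was not equal everywhere. In 9375 regions with a peak in all 7 lists, the percentiles of SWI3D and SYD overlapped in 6353 (67.8%). In 2103 regions (22.4%) every SYD percentile was above every SWI3D percentile, and in 919 (9.80%) the reverse held. The regions ranked higher by SYD were wide, with a median of 1681 bp against 1167 bp for those ranked higher by SWI3D and 1208 bp for all 9375. They also stood high in BRM, at a median percentile of 81.1 against 64.7, with 68.9 for all 9375. Their SYD percentiles, by which they were chosen, were higher too, at medians of 79.1 against 68.8. Whether the BRM values go beyond this was not tested.

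Nearly all reproducible SWI3D sites were also SYD sites, and most were also BRM sites. A region was called reproducible when it held a peak of every list of its line, which gave 11519 regions for SWI3D and 11962 for SYD. Of the SWI3D regions 10570 overlapped a reproducible SYD region (91.8%, Wilson 95% interval 91.2% to 92.2%, counting error only). Another 851 (7.39%) held a peak of some SYD list, and 98 (0.851%, 0.699% to 1.04%) held none. Of the SYD regions 9384 overlapped a reproducible SWI3D region (78.4%, 77.7% to 79.2%), 1941 held a peak of some SWI3D list and 637 (5.33%, 4.94% to 5.74%) held none. By the same rule 10070 SWI3D regions (87.4%) and 10477 SYD regions (87.6%) overlapped a reproducible BRM region, which needs peaks of only 2 lists. By this rule SYD regions were shared with BRM more often than with SWI3D, whose regions need peaks of 3 lists. With SWI3D 1 left out, so that SWI3D regions also needed peaks of only 2 lists, 89.5% of SYD regions were shared with SWI3D. SYD regions that held no BRM peak numbered 728 (6.09%), against the 637 that held no SWI3D peak. The order of BRM and SWI3D therefore depends on the rule. Without SWI3D 1 the share of SWI3D regions that held no SYD peak was 3.20% and the shared part was 81.9%; without SYD 2 the former was 1.45%. Requiring an overlap of 50% of both peaks gave 63.8% shared and 11.0% without SYD. SYD regions without SWI3D came to 26.8% under that overlap, 13.1% when peaks of 2 lists sufficed and 24.2% with lists whose label and name state the same line.

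SWI3D sites outside SYD were rarer than SWI3D sites outside BRM. Of the SWI3D regions 809 (7.02%) held no BRM peak. A SYD peak was held by 730 of those 809 (90.2%), below the 99.1% of all 11519 SWI3D regions. Set against 1 SYD and 1 BRM list at a time, 88.6% of SWI3D regions held a peak of both, 7.57% (6.86% to 8.59% over 8 pairs of lists) of SYD alone, 1.51% (0.486% to 2.48%) of BRM alone and 2.35% of neither. With equal numbers of the strongest peaks per list, the shares for SYD alone and BRM alone were 8.91% and 2.59%. BRM regions that held no SYD peak numbered 788. A peak of some SWI3D list was held by 124 of them (15.7%), against 85.1% of all 13475 BRM regions.

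Separate regions were weak in both lines. The median percentile was 27.8 in the 98 SWI3D regions without SYD against 63.1 in the shared ones, and 28.4 in the 637 SYD regions without SWI3D against 68.4 in the shared ones. No SYD region without SWI3D reached a mean percentile of 90, against 1518 of all 11962 SYD regions. Of the 98 SWI3D regions without SYD 6 did, against 1382 of all 11519 SWI3D regions. All 6 lay within chr5:11732040-11733891 or chr4:3966354-4010402. Of SYD regions without SWI3D 526 of 637 (82.6%) held a BRM peak, below the 93.9% of all 11962 SYD regions. Of SWI3D regions without SYD 19 of 98 (19.4%) did, against 93.0% of all 11519 SWI3D regions. In the weakest decile of SYD regions SWI3D 1, 2 and 3 had a peak in 37.8%, 66.9% and 69.1%, and in the strongest decile each had one in 99.9% or more.

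**Figure D5:**
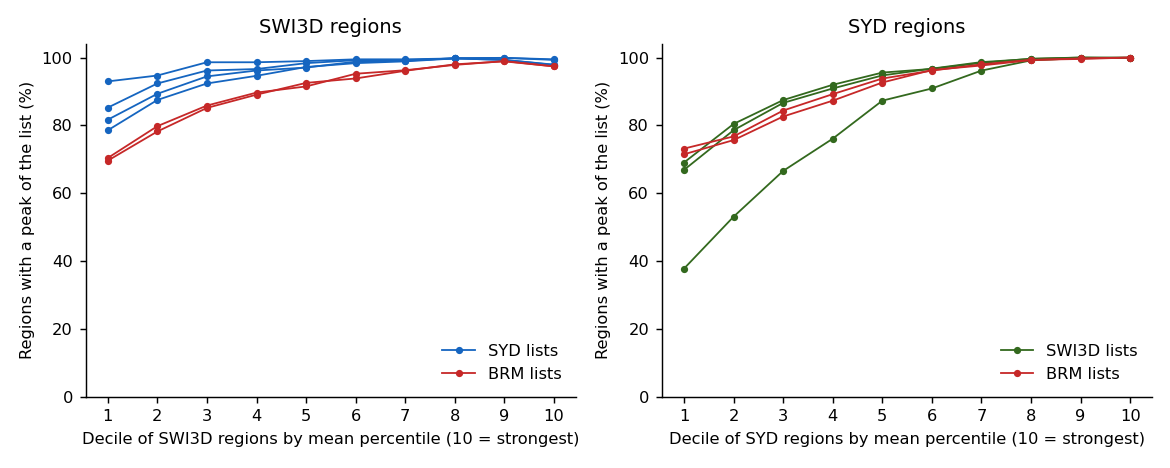
Percent of reproducible SWI3D regions (left) and SYD regions (right) that hold a peak of each list of the other lines, by decile of mean percentile of −log10 q; each line is 1 list. SYD lists lie above BRM lists over the weaker SWI3D deciles, and SWI3D 1 lies below the other lists over the weaker SYD deciles.

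The SWI3D regions that lacked SYD were also unlike the rest in place. Their summit lay more than 1 kb from any protein-coding gene in 41.8% of cases, against 15.5% of shared regions, and the median distance to the nearest end of a gene was 937.5 bp against 212 bp. Among the 19 lists that are neither SWI3D-GFP swi3d-1 nor SYD-GFP syd-5, and so had no part in choosing the regions, the 9 with organelle peaks held a peak in 40.4% of these 98 regions on average (24.5% to 58.2%). The 10 without them did so in 13.2% (2.04% to 32.7%), with overlapping ranges. The lowest share among the 9, 24.5%, was that of a SWI3D-GFP swi3d-1 syd-5 list, so these lists are not all of other subunits. For the 10570 shared regions the averages over the same lists were 77.1% and 83.1%. The part of the kind of list in these regions was not tested.

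Summits of SWI3D and SYD mostly lay outside genes, and those of BRM mostly lay inside them. A summit fell within a protein-coding gene for 33.6%, 38.4% and 38.6% of peaks in SWI3D 1 to 3 and for 41.1%, 41.5%, 41.2% and 40.4% in SYD 1 to 4. It did so for 69.1% and 68.0% in BRM 1 and 2. A position outside genes but within 1 kb of one was held by 49.8%, 46.0% and 45.9% of SWI3D summits, 44.1% to 45.0% of SYD summits and 19.2% to 20.0% of BRM summits. No SWI3D or SYD list came near the BRM lists.

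The same contrast held at sites that all 3 proteins shared. Over the 8239 regions with a peak in all 9 lists, the summit of the strongest peak was inside a gene in 34.8% to 37.4% for SWI3D, 38.0% to 38.7% for SYD and 66.6% to 67.2% for BRM. In 1785 of these regions (21.7%) the summit was outside genes in all SWI3D lists and inside in both BRM lists, and in 17 (0.206%) the reverse held. Between SWI3D and SYD such a clean switch was rare, with 33 regions outside in SWI3D and inside in SYD and 12 the other way. SWI3D and SYD were both outside and BRM inside in 1285 regions (15.6%). The gene table has no strand, so upstream and downstream ends of genes could not be separated.

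In the 3 regions that ranked highest by −log10 q, averaged over the 7 lists, summits nearly coincided. At chr4:1382174-1383120 (TAIR10), with the summit inside the overlapping genes AT4G03115 and AT4G03113, fold enrichment was 11.0, 13.6 and 13.1 in SWI3D 1 to 3 and 21.3, 23.4, 16.5 and 15.1 in SYD 1 to 4. BRM 1 and 2 had 8.11 and 9.08 there. The summits of the 7 SWI3D and SYD lists fell within 13 bp. These and all other fold values are the authors' and serve only to rank peaks within a list.

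At chr1:21363935-21365221 the peak lay in Cand1 (AT1G57680), a candidate G-protein-coupled receptor gene. Fold enrichment was 10.3, 17.1 and 17.4 in SWI3D, 22.4, 25.1, 17.1 and 16.6 in SYD, and 13.5 and 12.9 in BRM. It was the highest by fold of all peaks in SWI3D 2, SWI3D 3, SYD 1 and SYD 2, and the 7 summits spanned 42 bp. At chr1:8097357-8099161, which overlaps the cellulase gene CEL5 and AT1G22882, it was 10.2, 15.4 and 15.1 in SWI3D, 21.0, 22.2, 13.9 and 14.4 in SYD, and 10.4 and 9.95 in BRM, with summits spanning 37 bp. These last 2 regions also had the highest mean percentile of fold over the 7 lists. All 26 lists of the series held a peak at each of the 3.

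The 3 strongest SWI3D regions without SYD lay far from genes. At chr5:11732040-11732879 fold enrichment was 6.10, 5.40 and 5.31 and −log10 q was 519, 570 and 572 in SWI3D 1 to 3. The neighbouring chr5:11733462-11733891 had folds of 5.06, 4.91 and 4.99, and chr4:3966354-3966718 had 8.22, 8.56 and 8.75. No SYD or BRM list had a peak at any of them, and the nearest protein-coding gene was 95646, 97026 and 42120 bp away. Of the lists that had no part in the choice, all 9 with organelle peaks held a peak at each region, against 0, 2 and 0 of the 10 without, and the part of the kind of list was not tested. The 9 include SWI3D-GFP in the syd-5 background.

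A related set of 5 regions, chosen after their values were seen, ranked among the 10 strongest in all 12 lists with organelle peaks. They began at 3625642 on chromosome 2, 13590019 on chromosome 3, 3054394 and 3952128 on chromosome 4 and 11184817 on chromosome 5. Fold enrichment in SWI3D ran from 7.25 to 10.5. SYD 3 and SYD 4 had a peak at all 5, with folds of 1.47 to 2.13 but −log10 q of 115 to 420. SYD 1 and SYD 2 had a peak at 2 each, with folds of 1.08 to 1.32, and BRM had none. At chr3:13590019-13592668 the −log10 q was 2423, 3184 and 3336 in SWI3D and 344 and 420 in SYD 3 and SYD 4, the highest value of each of these 5 lists.

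The 3 strongest SYD regions without SWI3D were of middling rank. At chr5:1376874-1379485, 548 bp from the summit to the cationic amino acid transporter gene CAT6, fold enrichment was 4.49, 5.38, 4.83 and 4.48 in SYD 1 to 4 and 2.73 and 2.99 in BRM. At chr2:300268-301312, 2644 bp from the Nudix hydrolase gene NUDT17, it was 5.55, 6.35, 3.71 and 4.00 in SYD and 3.40 and 3.93 in BRM. At chr5:18947920-18948839, 766 bp from the bHLH transcription factor gene bHLH071, it was 4.60, 4.31, 4.24 and 4.96 in SYD and 3.10 and 4.54 in BRM. Both BRM lists had a peak at all 3 regions. At chr5:1376874-1379485 these were broad peaks of 4288 and 5640 bp with summits at 1379266 and 1379199. The SYD summits there lay between 1378010 and 1378085, so the folds belong to different summits. Of the lists that had no part in the choice, 8 of the 10 without organelle peaks held a peak at each, and 6, 0 and 1 of the 9 with organelle peaks did.

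Genes of the complexes themselves and genes reported as targets of SYD or BRM were read from fixed lists, with a gene counted when a region lay within 1 kb of it or inside it. Of all 27444 protein-coding genes 48.6% had a reproducible SWI3D region, 54.9% a SYD region, 59.8% a BRM region and 45.7% a SWI3D region shared with SYD. Of 21 subunit genes 12 had a SWI3D region, 12 a SYD region, 13 a BRM region and 11 (52.4%) a shared region, which is near the background. Of 23 reported targets 15 had a SWI3D region, 16 a SYD region, 16 a BRM region and 15 (65.2%) a shared region.

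Among the targets PIN2, PIN3, PIN4 and PIN7, which encode auxin efflux carriers, had a peak in all 9 lists. PIN3 had fold enrichments of 4.43, 6.13 and 6.99 in SWI3D 1 to 3, 9.46, 10.7, 7.42 and 8.37 in SYD 1 to 4 and 3.63 and 3.76 in BRM 1 and 2. All 7 summits of SWI3D and SYD lay between 26745195 and 26745222 on chromosome 1, while the strongest BRM peaks had theirs at 26743233 and 26743277. Those BRM peaks were broad, at 26742899 to 26745686 and 26742981 to 26745833, and so covered the SWI3D and SYD summits. PIN7 reached 6.02, 8.68 and 8.49 in SWI3D, 10.1, 11.9, 9.51 and 8.13 in SYD and 4.71 and 5.27 in BRM. Here the summits of the strongest peak in all 9 lists lay between 8181418 and 8181465 on the same chromosome. PIN4 had folds of 5.69 to 7.84 in SWI3D, 5.68 to 8.63 in SYD and 5.06 to 5.69 in BRM. PIN2 had lower folds, of 2.59 to 3.76 in SWI3D, 2.81 to 3.65 in SYD and 2.29 to 2.53 in BRM.

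Hormone and flowering genes followed. SCL3, a GRAS protein of gibberellin signalling, had folds of 6.26, 7.96 and 8.64 in SWI3D, 8.98, 8.96, 8.49 and 6.93 in SYD and 5.52 and 4.41 in BRM, with percentiles above 90 in all 7 SWI3D and SYD lists. GA3OX1, a gibberellin biosynthesis gene, stood at percentiles of 35.9 to 46.2 in SWI3D and 42.4 to 60.6 in SYD but at 1.1 and 8.7 in BRM. At SVP, a MADS-box repressor of flowering, the strongest peak stood at percentiles of 70.6 to 73.9 in SWI3D, 68.3 to 79.0 in SYD and 97.9 and 96.0 in BRM. These are partly different peaks, since those of SWI3D 1 and SWI3D 3 had summits at 9578609 and 9578654 and those of the SYD and BRM lists lay between 9580040 and 9581010. VSP2, a vegetative storage protein gene, had a peak in all 7 SWI3D and SYD lists, with folds of 2.44 to 3.58, and none in BRM.

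The floral gene AP3, the abscisic acid regulator ABI5, the flowering genes FLC and SOC1 and the boundary genes CUC1 and CUC3 also had shared regions. CO, which promotes flowering in long days, had a reproducible region in SYD and BRM and a peak in 2 of 3 SWI3D lists. AG, FT and PLT1 had no peak in any of the 9 lists. The stem cell gene WUS had a peak in SYD 1 and SYD 2 alone, with folds of 3.01 and 2.37, and the root stem cell gene PLT2 in SYD 3 and SYD 4 alone, with folds of 2.05 and 2.03.

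Symbols of 11 of the 21 subunit genes are not in the gene table used, so those genes are given by locus. AT5G55040 from the subunit list had a high rank in every line. Its folds were 5.38, 8.18 and 7.44 in SWI3D, 12.2, 13.0, 11.5 and 12.4 in SYD and 12.5 and 14.6 in BRM, with percentiles of 96.0 or more in every list. BRM itself, LFR and AT3G03460 had percentiles of 80.8 or more in all 7 SWI3D and SYD lists. The SWI3D gene had folds of 3.84, 4.53 and 4.41 in SWI3D lists, 2.38, 2.18, 1.95 and 1.85 in SYD lists and no peak in BRM. Its percentiles were 62.4 to 71.9 in SWI3D and 1.3 to 20.9 in SYD. The SYD gene had its peaks at percentiles of 23.1 to 56.0 in SYD lists and a peak in 2 of 3 SWI3D lists, so the tagged gene's own locus did not stand out in the SYD lists.

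Lists from lines in which the partner was mutant were set beside these regions. SWI3D-GFP swi3d-1 syd-5, with 8759 and 7062 peaks in its 2 lists, had a peak in 65.4% and 55.7% of shared SWI3D regions and in 34.7% and 24.5% of the 98 without SYD. SYD-GFP syd-5 swi3d-1, with 5227 and 4383 peaks, had one in 41.5% and 34.7% of shared SYD regions and in 10.8% and 7.38% of the 637 without SWI3D. These lists are much shorter, so fewer calls in each class and fewer calls overall cannot be told apart.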

How the data were processed

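Processed peak lists from 9 of 26 ChIP-seq libraries carried the main comparisons. Per the submitters' processing notes the tools were fastp, Bowtie2, MACS2 2.0, deepTools and ChIPseeker with the build TAIR10; their order and settings are not given in the sources used here. Each deposited list belongs to 1 library. For every peak the authors deposited a fold enrichment (a linear ratio), significance as −log10 of p and of q, a whole-number score that tracks the latter, and the summit as an offset from the start.

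Peaks on chromosomes 1 to 5 overlapped from 1 bp. Lists were the units of exact two-sided permutation tests, with Benjamini-Hochberg adjustment over 5 tests of SYD against BRM and 3 of SYD against SWI3D. Correlations over regions carry no p. Regions named are the 3 highest by mean percentile of −log10 q and 2 by fold over the 7 lists, and the 3 highest of each separate class. Genes came from RefSeq (TAIR10.1), matched by locus tag, and that table gives no strand, so 1 kb at both ends of a gene replaced the planned upstream window; a difference from TAIR10 in positions was not checked. Motifs at summits were planned and not analysed here, since no genome was used. Members and lists were chosen with earlier results of these data known. Alternatives were a 50% overlap, −log10 q of at least 10, equal list lengths, fold as rank, overlapping pairs, 2 lists per region, organelle peaks, medians, each list left out, labels as groups, concordant records and a replicate block. The scripts were tested on simulated data. Values of a listed gene are not reported here. Unmapped columns numbered 0. Python 3.11.15, numpy 2.4.6, scipy 1.17.1 and matplotlib 3.10.9 were used.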

Additional observations from a re-analysis of the deposited data

Results flagged for a closer look

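Dixon's ratio, the gap of an extreme list to its neighbour over the range of the group, was computed for 43 measures of the 4 SYD lists, and 6 passed the 95% critical value; chance flags about 1 in 20. SYD 2 had more peaks than the others (17283 against 16082 to 16223; ratio 0.883). SYD 4 stood lowest at chr4:1382174-1383120, at a percentile of 99.92 against 99.98 or more (ratio 0.835). At AT3G03460, from the list of subunit genes, SYD 4 was lowest (81.4 against 85.3 to 86.0; ratio 0.846). At AP3 SYD 3 was lowest (73.5 against 87.6 to 88.9; ratio 0.915), and at SOC1 SYD 3 was again lowest (74.8 against 91.2 to 93.8; ratio 0.864). SOC1's highest-ranked summit in SYD 3 lay at 18806902 and in the other SYD lists between 18814438 and 18814461, so the value compares different peaks. At VSP2 SYD 1 was highest (48.9 against 25.1 to 27.3; ratio 0.909).

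Peaks on the plastid and mitochondrial genomes lie outside every comparison. SWI3D 1, 2 and 3 held 102, 70 and 82 of them, and the SYD and BRM lists held 0.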

How the results depend on the processing

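The nearness of SWI3D to SYD over BRM kept its direction in all 5 measures under every alternative run. Leaving out each list in turn gave differences of 0.120 to 0.132 for the Jaccard index, 5.19 to 7.40 percentage points for the overlapped share, 0.271 to 0.288 for rho, −153.25 to −146 bp for summits and −0.34 to −0.29 (log2) for widths. A 50% overlap gave 22.0 points, −62 bp and −0.09 for the overlapped share, summits and widths. The log2 ratio of peak number, SYD over SWI3D, turned to −0.13 with −log10 q of at least 10 and to −0.023 with medians, and ran from −0.0093 (without SWI3D 1) to 0.16 as lists were left out. For SWI3D regions shared with SYD, SWI3D regions without SYD, SYD regions shared with SWI3D and SYD regions without SWI3D, in that order, the percentages were 63.8, 11.0, 61.5 and 26.8 with a 50% overlap, 87.7, 1.36, 75.7 and 2.44 with −log10 q of at least 10, and 87.9, 1.61, 83.5 and 4.23 with equal list lengths. They were 93.2, 3.53, 79.6 and 13.1 with peaks of at least 2 lists, 96.4, 0, 33.2 and 0.536 with groups as labelled, and 89.6, 4.72, 75.8 and 24.2 with concordant records. With organelle peaks included SWI3D regions without SYD came to 1.23%. Leaving out lists gave 81.9 to 93.8, 0.972 to 3.20, 74.8 to 89.5 and 6.34 to 7.05. Shared subunit genes numbered 5 with −log10 q of at least 10, 4 as labelled and 11 to 12 with lists left out; shared targets numbered 4 as labelled and 15 to 16. The cause of these changes was not tested.

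With a replicate block over 3 pairs the log2 ratios were 0.11 for peak number (exact permutation p = 0.5), 0.59 for covered length and 0.20 for width (exact permutation p = 0.25 for both, the smallest possible). Deviations of same-numbered lists had correlations of −0.0227, 0.0364 and −0.0280, and whether these lists share more than a number is not known. The block could change no call, since its smallest possible p is 0.25 in this exact permutation test. Restricting to lists of 1 kind was not run, since SWI3D and SYD share none. Without either BRM list a single list is left, assumed to stand for the line. Depth is unknown, so weak sites not called in a list may lie under its detection limit.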
